A study of Mus musculus with 4 samples.

Results

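The major histone gene cluster of the mouse lies on chromosome 13, and 43 of its protein-coding genes between positions 21600000 and 23700000 of the mm10 genome build (GRCm38) were described here, out of 21631 protein-coding genes on the autosomes and X. They were taken by symbol (older names starting Hist1h, newer names starting H1f, H2ac, H2bc, H3c or H4c) and comprised 13 H2B, 11 H2A, 9 H4, 6 H3 and 4 H1 genes. The gene table spelled 1 of the H2B genes H4bc24, and its older name is Hist1h2br. Accessible regions were the peaks of the 4 libraries merged wherever they shared 1 bp, and the 77 regions that overlapped a histone gene or the 1000 bp on either side of it were the histone regions, out of 337776 regions in all.

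The 4 ATAC-Seq libraries were made from hematopoietic stem cells sorted from mouse bone marrow, 2 from control mice and 2 from Cpt1a-KO mice. ATAC-Seq cuts open chromatin with the Tn5 transposase, so that a peak marks DNA that is free of tightly packed nucleosomes. Per the study's methods the control mice were Cpt1a fl/fl, with loxP sites around Cpt1a and no deletion, although the labels call them WT, and the KO mice were Cpt1a fl/fl mice carrying Vav1-Cre, in which the gene is deleted throughout the blood system rather than in stem cells alone. The study used adults of both sexes unless otherwise stated, on a C57BL/6, CD45.2 background. The mice of these libraries were untreated and fed normal chow. The labels name the cells ltHSC (long-term hematopoietic stem cells), whereas the study's text speaks of sorted HSPCs, the wider pool of stem and progenitor cells. Cpt1a encodes the enzyme that loads long-chain fatty acids for import into mitochondria.

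Histones are the proteins around which DNA is wound: H2A, H2B, H3 and H4 build the core of the nucleosome, and the linker histone H1 binds the DNA where it enters and leaves. Most genes of this cluster are replication-dependent, which means that they lack introns, are transcribed mainly in S phase while DNA is copied, and end their mRNAs in a stem-loop rather than a poly(A) tail. Cells carry many near-identical copies, and H2A and H2B genes often sit head to head and share the DNA between their starts. A few members, such as H1f6 (the linker histone H1t) and the H2ac1 and H2bc1 pair, are known for their use in the male germ line.

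The lists held 240940 to 277594 summits (points of highest signal) per library and gave no read depth. Each region's fold, the enrichment at its strongest summit over local background, was therefore also ranked within its own library, and a percentile of 100 marks the strongest region there. A peak stood within 1000 bp of all 8 stem and progenitor marker genes in all 4 libraries, and of 4 of 4 B cell, 3 of 4 T cell, 3 of 4 myeloid, 3 of 4 erythroid and 2 of 4 mast cell markers. The same held for 77.9% of all protein-coding genes. The strongest region within 1000 bp of Cpt1a ranked at percentiles of 94.1 and 95.9 in the control and 94.7 and 91.2 in the KO libraries, which does not check the deletion of its exons. Nothing in the labels says whether the 2 libraries of a genotype came from separate mice.

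Of the 44 histone regions with a peak in all 4 libraries, 31 lay at the start of a histone gene. For this reason 7 start windows are shown, to compare the families and the strongest, weakest and peak-free starts. Each window runs 5′ to 3′ along the gene from 250 bases before to 49 after the annotated start (RefSeq, GRCm38.p6), and positions are counted from 0 at the start itself. Capitals mark matches on either strand to the TATA box (TATAAA), the CCAAT box (CCAAT), the octamer (ATTTGCAT), the H1 box (AAACACA) and the GGTCCG core of the element typical of H4 promoters. They are the strongest head-to-head pair at chr13:22035594-22035893 (minus strand, with the start of H2bc12 inside the window, 178 bp upstream), the strongest H2B start outside such a pair at chr13:21721794-21722093 (plus), the weakest start at chr13:23533625-23533924 (plus), the weakest H3 start at chr13:23575513-23575812 (plus), an H4 start at chr13:23551619-23551918 (minus), an H1 start with a peak at chr13:23554782-23555081 (plus) and the H1 start without a peak at chr13:23695561-23695860 (plus).
H2ac12: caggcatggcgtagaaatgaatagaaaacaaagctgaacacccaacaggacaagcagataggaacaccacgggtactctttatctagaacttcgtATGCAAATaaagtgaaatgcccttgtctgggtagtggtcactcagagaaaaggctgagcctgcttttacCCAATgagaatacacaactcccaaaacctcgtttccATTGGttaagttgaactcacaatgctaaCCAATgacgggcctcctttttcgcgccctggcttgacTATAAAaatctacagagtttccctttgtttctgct
H2bc14: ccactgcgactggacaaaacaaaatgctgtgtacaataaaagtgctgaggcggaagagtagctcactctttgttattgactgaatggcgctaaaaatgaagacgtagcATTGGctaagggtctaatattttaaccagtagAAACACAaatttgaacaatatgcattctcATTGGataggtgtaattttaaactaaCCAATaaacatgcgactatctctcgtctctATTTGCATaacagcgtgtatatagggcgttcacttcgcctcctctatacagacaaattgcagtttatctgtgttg
H2ac10: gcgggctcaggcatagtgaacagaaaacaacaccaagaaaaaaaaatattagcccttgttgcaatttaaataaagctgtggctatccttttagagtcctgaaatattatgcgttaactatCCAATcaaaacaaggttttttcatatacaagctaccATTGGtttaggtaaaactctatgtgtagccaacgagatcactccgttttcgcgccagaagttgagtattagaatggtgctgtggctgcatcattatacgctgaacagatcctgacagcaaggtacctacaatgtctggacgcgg
H3c4: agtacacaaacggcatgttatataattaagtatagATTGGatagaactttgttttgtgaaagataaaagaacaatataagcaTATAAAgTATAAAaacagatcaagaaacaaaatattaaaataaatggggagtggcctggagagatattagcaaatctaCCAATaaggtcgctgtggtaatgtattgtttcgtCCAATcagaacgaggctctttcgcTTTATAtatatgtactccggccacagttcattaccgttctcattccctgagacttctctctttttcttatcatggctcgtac
H4c6: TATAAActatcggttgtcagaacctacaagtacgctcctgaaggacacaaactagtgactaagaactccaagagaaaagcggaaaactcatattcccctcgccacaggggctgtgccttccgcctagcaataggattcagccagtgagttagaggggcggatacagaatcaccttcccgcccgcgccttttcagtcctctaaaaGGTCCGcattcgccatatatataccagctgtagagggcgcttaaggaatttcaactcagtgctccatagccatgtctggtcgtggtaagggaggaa
H1f3: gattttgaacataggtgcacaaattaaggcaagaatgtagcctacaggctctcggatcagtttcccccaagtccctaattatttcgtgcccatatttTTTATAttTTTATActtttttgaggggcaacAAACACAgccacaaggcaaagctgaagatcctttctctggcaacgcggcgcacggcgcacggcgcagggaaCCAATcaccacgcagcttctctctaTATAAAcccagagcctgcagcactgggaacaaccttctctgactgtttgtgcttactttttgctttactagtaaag
H1f6: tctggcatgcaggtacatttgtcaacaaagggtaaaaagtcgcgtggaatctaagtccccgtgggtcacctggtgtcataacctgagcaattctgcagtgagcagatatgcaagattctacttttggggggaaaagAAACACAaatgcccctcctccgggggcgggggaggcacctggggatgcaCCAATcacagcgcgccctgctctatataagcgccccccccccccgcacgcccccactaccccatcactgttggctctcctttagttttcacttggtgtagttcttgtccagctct

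RefSeq windows were found for 41 of the 43 genes (42 windows, because H2bc6 has 2 annotated starts), and H2bc4 and H3c7 had no window. The families carried different sequence elements. The CCAAT box, the site of the factor NF-Y, was present in all 4 H1, 11 H2A, 13 H2B and 5 H3 windows but in only 2 of 9 H4 windows, against 37.6% of all 32619 RefSeq windows. The GGTCCG core, by contrast, was in 9 of 9 H4 windows, in 1 H2B and 1 H3 window and in no H1 or H2A window, against 8.31% of all windows. It was added to the search after the other motifs.

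The H1 box was in 4 of 4 H1 windows, H1f6 included, and in 1 other window, that of H2bc14 (7.22% of all windows). The octamer, bound by POU factors, was in 3 H2A and 4 H2B windows and in none of the other families (1.75% of all windows). TATAAA was in 24 of the 42 windows (13.7% of all windows), and neither E2F-type sequence searched (TTTGGCGC and TTTCCCGC) was in any (1.58% of all windows). The histone windows had a median GC content of 45.5% and a median of 11.5 CpG dinucleotides, whereas all RefSeq windows had 53.0% and 7.0. These are letter matches in a 300-base window and describe no bound factor. The windows of H2A and H2B genes that sit head to head overlap, so 1 element can be counted for both families. Of the windows with the octamer 4 belonged to such pairs, and of those with the CCAAT box 18.

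All 43 genes had a peak within 1000 bp in all 4 libraries, as had 77.9% of all protein-coding genes. At the starts themselves, 41 of the 42 windows held a region with a peak in all 4 libraries, against 47.7% of all RefSeq start windows. The exception was H1f6, whose window held no summit in any library, and whose nearest region shared by all libraries was 1664 bp from its start. H1f6 counted as a gene with a peak only because the region at the start of its neighbor H4c3 lay 930 bp from the gene. Its window had the highest GC content of the 7 printed, 54.7%, and the same H1 box and CCAAT box as H1f3.

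The 41 windows with peaks fell in 31 start-site regions, 10 of which held the starts of more than 1 gene. Another 46 histone regions lay away from every start window, and 13 of them had a peak in all 4 libraries while 24 were found in a single library. The 13 include the region over H3c7 (chr13:23544230-23545179), because that gene had no window. Of the 77 histone regions, 44 were thus shared by all 4 libraries, whereas 23.8% of all regions were. By genotype, 1 histone region of the 53 found in 2 or more libraries had a peak in both KO libraries and neither control library (3.47% of all regions found in 2 or more libraries), and 1 had the reverse pattern (6.05%). Both were weak. The region limited to KO, chr13:21782790-21782987 beside H3c11, had folds of 1.68 and 1.78 and percentiles under 0.1. The region limited to control, chr13:23596099-23596236 inside the long annotated span of H2bc6, had folds of 2.54 and 2.19.

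**Figure D1:**
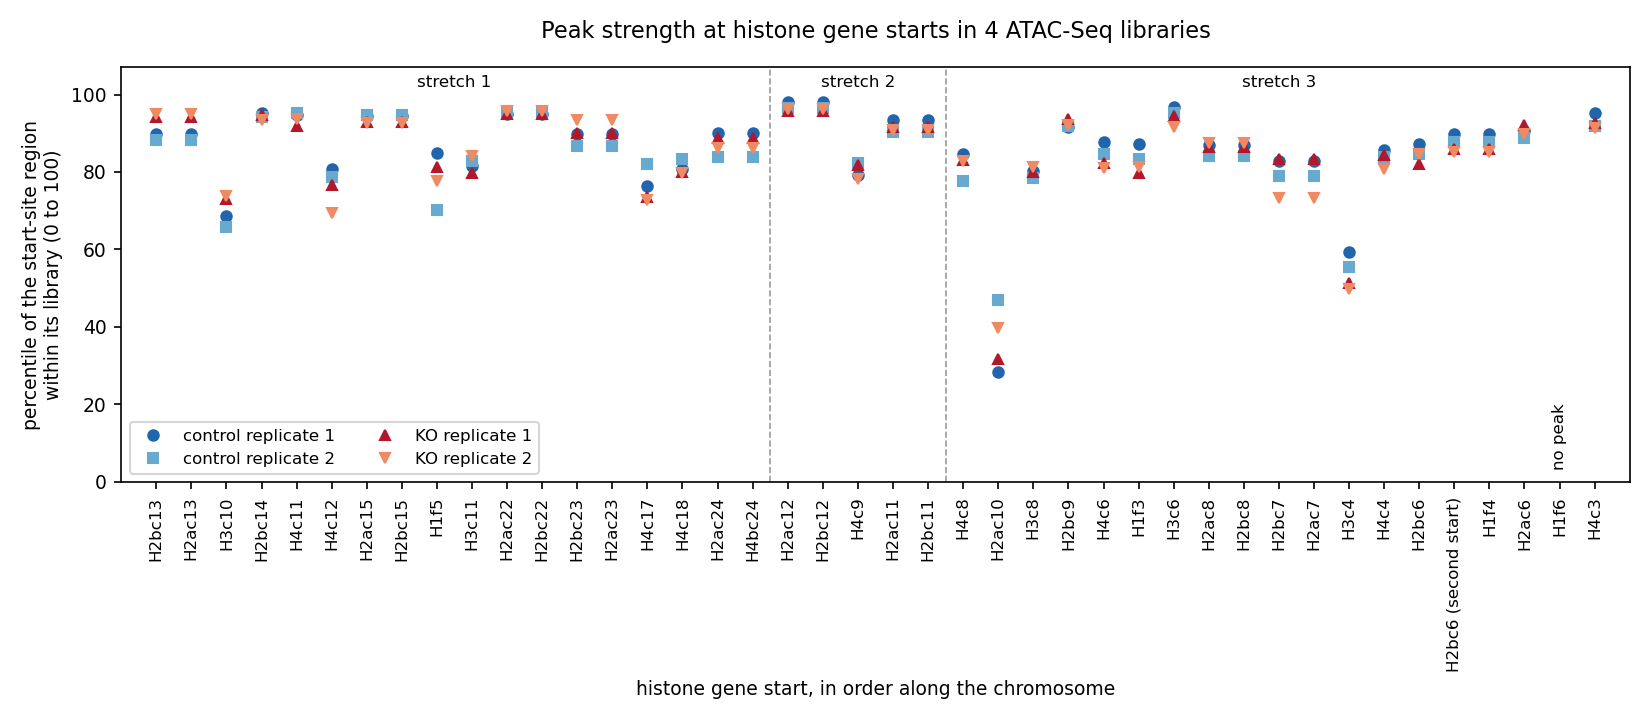
Within-library percentile (vertical axis, 0 to 100) of the region at each of the 42 histone gene starts (horizontal axis, in chromosomal order, dashed lines between the 3 stretches of the cluster), with 1 marker per library. Most starts sit between 70 and 98 in all 4 libraries, H2ac10 and H3c4 lie lowest, and H1f6 has no peak.

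The cluster falls into 3 stretches with 13, 3 and 15 start-site regions. Strength at the starts differed more between genes than between libraries, as the plot of percentiles along the cluster shows. The strongest region covered the head-to-head pair H2ac12 and H2bc12 (chr13:22034990-22036630), which encodes an H2A and an H2B copy in the short middle stretch. Its folds were 19.1 and 16.6 in the control libraries and 15.4 and 15.0 in the KO libraries, at percentiles of 98.2, 96.5, 95.7 and 96.3. Next came H2ac22 and H2bc22, the strongest starts of the first stretch (chr13:21786893-21787677). Their shared region had folds of 14.4 and 15.4 in control and 14.4 and 14.3 in KO, and its log2 difference between genotypes was 0.00 (SE 0.14) after normalization.

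The head-to-head arrangement was common: 18 of the 24 H2A and H2B genes formed 9 pairs whose starts faced away from each other across 164 to 268 bp. H2bc4 is 1 of the 24 but had no start window, so a pair with H2ac6 could not be counted. Its annotated span begins at position 23684199, near the minus-strand start of H2ac6 at 23683959. Each pair lay in 1 shared region, and in 9 of 9 pairs the region's strongest summit fell between both starts in every library. The median percentile of these 9 regions was 89.98 and 88.3 in the control and 91.5 and 92.7 in the KO libraries. The weakest pair, H2bc7 with H2ac7, had folds of 7.68 and 7.28 in control and 7.78 and 5.16 in KO. Among the H2B starts without a listed H2A partner, H2bc14 was strongest, with folds of 14.8, 14.2, 14.3 and 11.9 in the order control 1, control 2, KO 1 and KO 2.

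H2ac10 was the weakest of all starts with a peak. Its folds were 2.68 and 3.47 in control and 2.93 and 3.22 in KO, and its percentiles ran from 28.4 to 47.0 with the genotypes overlapping. The printed window of H2ac10 holds CCAAT boxes but no octamer and no TATAAA, unlike that of H2ac12. In the H2ac12 window the octamer begins 155 bp upstream of the annotated start, on the opposite strand, which is that of H2bc12. It lies nearer the start of H2bc12, which is 178 bp upstream of that of H2ac12. TATAAA begins 15 bp downstream of the H2ac12 start. Of the 11 H2A windows only 3 hold the octamer and 6 hold TATAAA, and a link of these elements to peak strength was not tested. H2ac6, which lies in the last stretch, ranked far higher than H2ac10, between percentiles of 88.9 and 92.1, in a region that it shares with H2bc4.

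The H3 starts ranged widely. H3c6 was the strongest start of the last stretch, with folds of 16.6 and 15.2 in control and 13.9 and 10.7 in KO. H3c4 was the weakest, with folds of 3.83 and 3.86 in control and 3.28 and 3.33 in KO, and H3c10 was the weakest start of the first stretch, with 4.77 and 4.98 against 5.24 and 5.28. H3c8 and H3c11 lay between, at percentiles of 78.4 to 84.2. For H3c7 the strongest region over the gene itself (chr13:23544230-23545179) had folds of 10.4 and 13.8 in control and 11.3 and 10.97 in KO.

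The 9 H4 starts were more even. Their median percentile was 84.7 and 83.3 in the control and 82.4 and 80.8 in the KO libraries. H4c11 was highest, with region folds of 14.1 and 15.1 in control and 11.7 and 12.4 in KO, but that strongest summit stood away from the start, at -723 or -724 bp. Within 300 bp of the start the folds of H4c11 were 9.10 and 10.3 in control and 9.70 and 9.74 in KO. H4c17 was lowest, with 5.98 and 8.12 in control and 5.37 and 4.98 in KO, and H4c9 was lowest in the middle stretch, with 6.63 and 8.26 against 7.19 and 6.03. H4c3, the last histone gene inside the upper edge of the interval, had 14.9 and 12.3 against 12.4 and 10.6.

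Of the linker histone genes, H1f4 had the strongest region, with folds of 10.6 and 10.2 in control and 8.60 and 7.78 in KO, in a region 1983 bp wide that it shared with a start of H2bc6. H1f3 followed with 9.33 and 8.52 against 6.71 and 6.70, and H1f5 with 8.44 and 5.62 against 7.15 and 5.88. The strongest summit of H1f5 lay 1103 to 1239 bp downstream of its start, beyond the end of the 794 bp gene, and that of H1f4 lay 856 to 869 bp downstream, beyond the end of its 782 bp. Peaks within 300 bp of these starts were lower, with folds of 4.17 to 4.97 at H1f5 and 6.66 to 7.35 at H1f4.

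**Figure D2:**
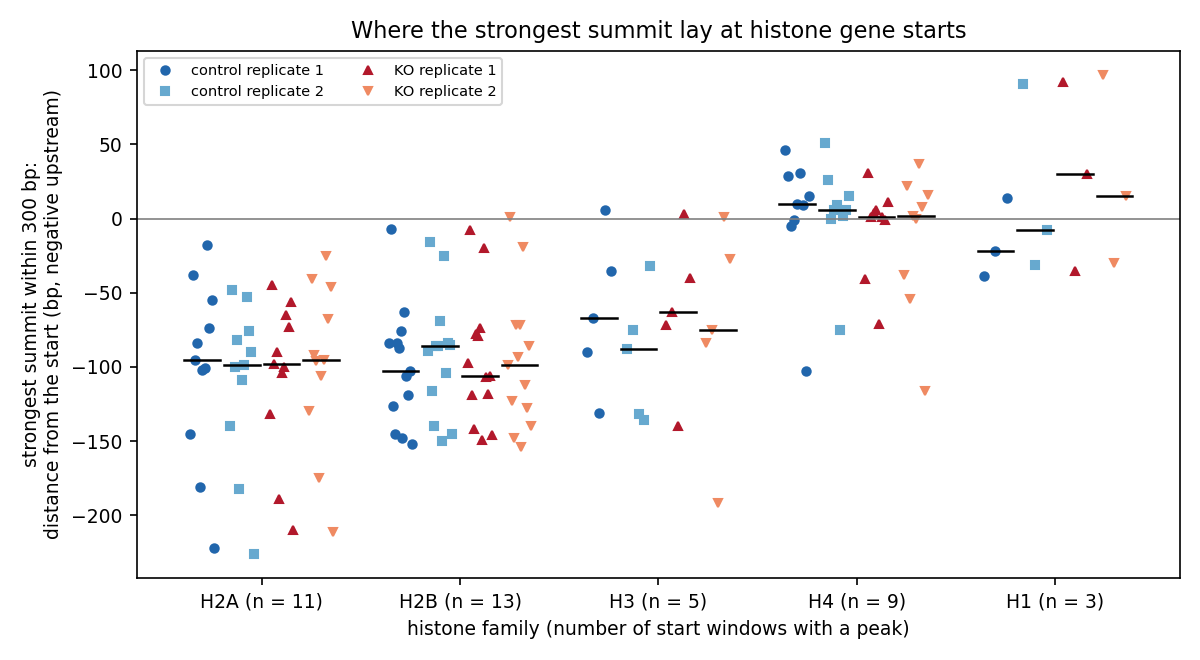
Distance in bp (vertical axis, negative upstream) from the annotated start to the strongest summit within 300 bp, for each start window with a peak (points, 4 libraries side by side, black bars the medians), by histone family (horizontal axis). The H4 points gather around 0, while H2A and H2B medians lie 86 to 106 bp upstream.

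Families also differed in where the summit stood, which the plot of summit distances shows. Within 300 bp of the start, the strongest summit of the 11 H2A windows lay at a median of -95 and -99 bp in control and -98 and -95 bp in KO, and of the 13 H2B windows at -103 and -86 bp in control and -106 and -99 bp in KO. For the 9 H4 windows the medians were 10, 6, 1 and 2 bp in the same order of libraries, and 8 of 9 lay within 60 bp of the start in each library. The 5 H3 windows had medians of -67, -88, -63 and -75 bp. All H2A summits were upstream in all 4 libraries. H2A and H2B partners share their summit, so these windows are not independent, and the difference between families was given no test.

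Some copies are near-identical. A run of 50 or more identical bases was shared with another histone window, other than an overlapping one, by 8 of the 42 windows, and 6 of these shared at least 73.3% of their runs. They were H2bc23 and H4bc24 (100% shared), H4c17 and H4c18 (94.0%), H2ac23 (86.9%) and H2ac24 (73.3%). The regions at H4c17 and H4c18 were also equally wide, at 1727 bp each. How reads that fit both copies were assigned is not given in the sources used here, so values at these 6 starts are uncertain.

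The comparison of genotypes asked whether accessibility at the histone genes differed once Cpt1a was deleted. The log2 fold of the 80271 regions shared by all 4 libraries was quantile normalized and tested with limma, and no region of the genome passed an adjusted p of 0.05 (percent called 0), histone regions included. At an unadjusted p under 0.05 limma called 6123 regions, or 7.63%. On simulated data for this comparison over 80271 regions, the fit recovered 62 of 200 planted changes of 1 on the log2 scale and 199 of 200 of 2. With 2 libraries against 2, an exact two-sided permutation test of a single region cannot go below p = 0.333.

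Among the 44 shared histone regions, 2 were higher and 2 lower in KO at an unadjusted limma p under 0.05, where the background was 3.56% and 4.07% of all regions. The largest rise was at a weak region over the end of H2bc11 (chr13:22043558-22043862). Its folds were 1.60 and 1.66 in control and 2.93 and 2.29 in KO, a log2 difference of 0.65 (SE 0.19, limma adjusted p = 0.506). Next was the start-site region of the pair H2bc13 and H2ac13 (chr13:21715978-21717091), with 10.5 and 10.4 in control and 13.6 and 13.4 in KO, a log2 difference of 0.45 (SE 0.16, limma adjusted p = 0.563). Both KO libraries stood above both controls in each of these regions. The third, the H2bc23 and H2ac23 pair, had 10.6 and 9.78 against 10.6 and 11.97 and a log2 difference of 0.24 (SE 0.18, limma adjusted p = 0.805), which was 0.09 without KO replicate 2 and 0.38 without KO replicate 1.

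The largest fall was inside the annotated span of H2bc22 (chr13:21797125-21797632), with folds of 6.82 and 11.7 in control and 7.01 and 3.68 in KO. Its log2 difference was -0.72 (SE 0.31, limma adjusted p = 0.624), the genotypes overlapped, and the value was -0.33 without control replicate 2 and -0.30 without KO replicate 2. It was followed by regions over the spans of H2bc23 (chr13:21808651-21809126, log2 difference -0.51, SE 0.25, limma adjusted p = 0.658) and H4bc24 (chr13:21834226-21835305, -0.39, SE 0.23, limma adjusted p = 0.728), both within genes that share sequence. The start of H3c6 (chr13:23561642-23562928), with the folds given above, was lower in both KO libraries than in both controls by -0.32 on the log2 scale (SE 0.15, limma adjusted p = 0.650). Without control replicate 2 the value at H2bc23 was -0.29, and without KO replicate 2 the value at H3c6 was -0.20.

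**Figure D3:**
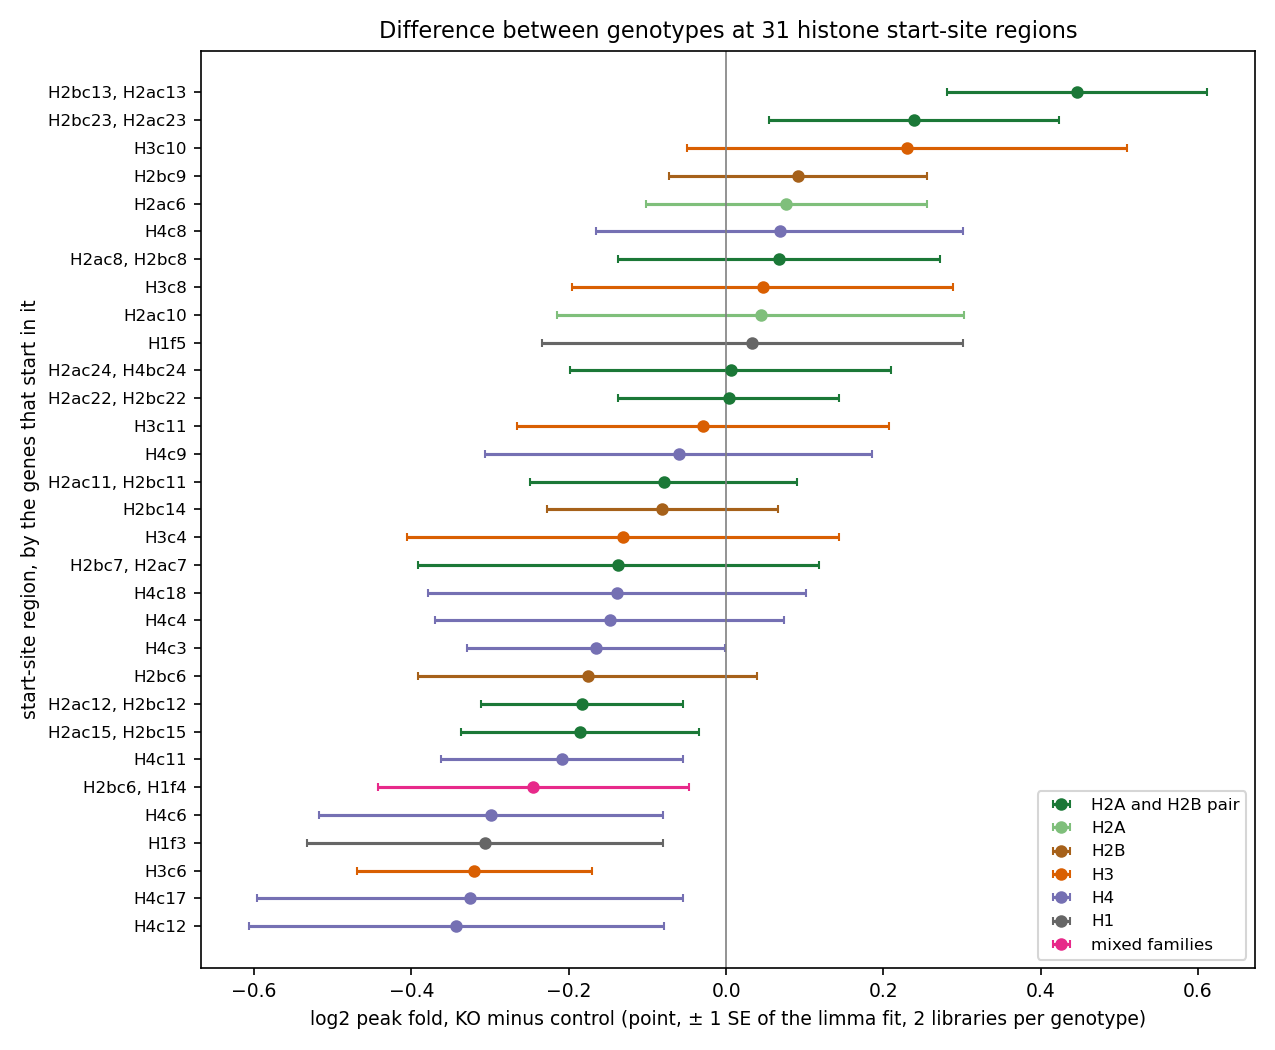
Log2 difference in normalized fold between KO and control (horizontal axis, points with ± 1 SE of the limma fit, 2 libraries per genotype) at the 31 histone start-site regions (vertical axis, sorted), colored by histone family. Values run from -0.34 at H4c12 to 0.45 at the H2bc13 and H2ac13 pair, 8 of 9 H4 regions lie left of 0, and none passed the adjusted threshold.

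Across the 31 start-site regions the median log2 difference was -0.08, with 12 higher and 19 lower in KO, as the plot of genotype differences shows, whereas the 12143 shared regions at any RefSeq start had a median of 0.03 and all 80271 regions 0.00. Both KO libraries lay below both controls at 12 of the 31 (background 18.6% of all regions and 14.7% of regions at RefSeq starts) and above them at 3 (19.1% and 22.3%). The 9 H4 regions had a median of -0.17, and 8 had the lower mean in KO, H4c8 being the exception. Among all regions at RefSeq starts 5287 of 12143 were lower in KO, and among all shared regions 39603 of 80271. The H4c11 value comes from the summit at -723 or -724 bp. Within 300 bp of that start the folds were 9.10 and 10.3 in control and 9.70 and 9.74 in KO. H4c17 and H4c18 are among the starts with shared sequence, whose values are uncertain. Leaving out 1 library moved the H4 median to between -0.25 (without control replicate 1) and -0.14 (without KO replicate 2). The median of all start-site regions moved to between -0.12 (without control replicate 2) and -0.06 (without KO replicate 2). H4c12 had the lowest value of the start-site regions, with folds of 7.11 and 7.22 in control and 5.98 and 4.53 in KO (log2 difference -0.34, SE 0.26, limma adjusted p = 0.804), and its log2 difference was -0.20 without KO replicate 2. The 9 pairs of H2A and H2B had a median of 0.00, with 5 higher and 4 lower. None of these single differences passed the test, and the counts describe regions of the same 4 libraries.

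**Figure D4:**
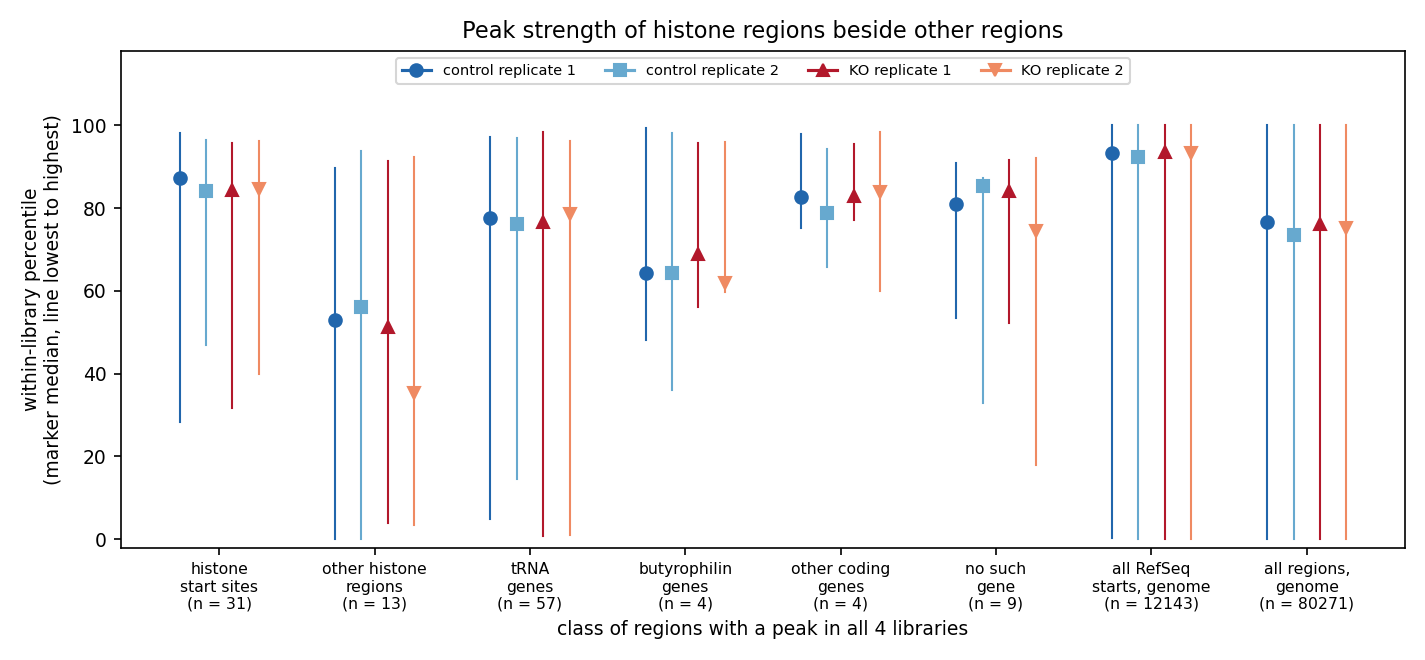
Within-library percentile (vertical axis, markers the median and lines the lowest to highest) for classes of regions with a peak in all 4 libraries (horizontal axis, number of regions below each). Histone start sites have medians of 84.1 to 87.3, above the tRNA regions of the same interval and below the regions at all RefSeq starts, at 92.2 to 93.4.

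Beside other regions, the histone starts were of middle strength, as the plot of region classes shows. Their median percentile was 87.3 and 84.1 in control and 84.4 and 84.7 in KO, while the regions at all RefSeq starts had 93.4, 92.2, 93.4 and 93.4. Histone regions away from start windows, the region over H3c7 included, had medians of 53.0 and 56.0 in control and 51.2 and 35.2 in KO. The other 191 regions of the interval included 76 shared by all libraries, with medians of 76.2 to 78.8 and a median log2 difference of 0.05 between genotypes. None of the 36 vomeronasal receptor genes and none of the 5 olfactory receptor genes of the interval had a peak within 1000 bp in any library.

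Histone genes outside the interval were counted the same way. Past the upper edge of the interval stood another 11 genes of the cluster, 9 of which had a peak in all 4 libraries. H1f2, the first of them, had folds of 10.9 and 11.4 in control and 10.3 and 7.99 in KO. The exceptions were the H2bc1 and H2ac1 pair, neither of which had a peak within 1000 bp in any library. All 13 replication-dependent histone genes on other chromosomes and all 10 replication-independent histone genes had a peak in all 4 libraries. So did all 25 genes listed for histone transcription and histone mRNA processing (among them Npat, the organizer of the histone locus body, and Slbp, which binds the mRNA stem-loop), with median percentiles of 96.8 to 97.4. Of all protein-coding genes 77.9% had such a peak, with median percentiles of 93.6 to 94.5. These percentiles take the strongest region within 1000 bp of the whole gene, unlike the start-site values above. Taken this way, the 43 histone genes of the interval had medians of 86.8 to 90.1.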

How the data were processed

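The authors prepared ATAC-Seq libraries from sorted bone marrow cells and deposited 1 narrowPeak list per library (2 control, 2 KO). Per the labels' processing notes, Bowtie2, MACS2 and mm10 were used, with versions and settings not given in the sources used here. Each deposited row holds a summit with its fold, a linear ratio over local background, its -log10 p and -log10 q (p-values and q-values on the -log10 scale), a score and the summit's offset from the peak start, except that 253 to 492 rows per list gave a chromosome position, which was read as such. No replicate was pooled and no read depth is given. Samples were grouped by title.

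Here, summits on the autosomes and X were merged at 1 bp overlap into regions. A region's value was its strongest fold, ranked among the regions with a peak in that library. Regions with a peak in all 4 libraries were tested on log2 fold without a pseudocount, quantile normalized, with limma 3.58.1 (mean-variance trend, genotype only, Benjamini-Hochberg over 80271 regions, threshold 0.05) in R 4.3.3. The study's own test used reads, which were not used here, and it reported peaks both up and down in KO. The absence of calls described above therefore holds for this test of fold only. Tables were built with pandas 2.3.3 and figures with matplotlib 3.10.9 in Python 3.11.15. The fit was tested on simulated data. Gene positions and start windows came from RefSeq tables for GRCm38.p6.

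Named were genes without a peak at the start, the 3 largest rises and falls (no region having passed the threshold) and those at an unadjusted p under 0.05, the strongest and weakest start in each stretch and family, and the genes on either side of the upper edge. Members, lists, markers and motifs were chosen with earlier results of these data known. Alternatives changed the peak threshold, list length, overlap, flank, interval, ranking, normalization, pseudocount, trend, replicate block and the libraries included. P-values measure only the spread between these libraries, which may be technical.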

Additional observations from a re-analysis of the deposited data

How the results depend on the processing

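Peak presence depended little on the settings tried. For the same genes, 36 to 49 histone regions, 41 to 43 genes and 39 to 41 start windows had a peak in every library, against 44, 43 and 41 as reported. Moving the upper edge to 24000000, which adds genes, gave 54, 52 and 49. Regions limited to 1 genotype were unstable. Those in KO alone numbered 0 when only summits of -log10 q 5 or more were kept, 5 with lists of equal length and 4 to 9 without 1 library, against 1. Those in control alone numbered 0 with lists of equal length and 1 to 7 without 1 library, against 1. Leaving out a library also loosens the rule, because only 1 library of that genotype then has to hold or lack the peak. The median percentile of shared histone regions was 84.1 in control and 81.5 in KO. It became 64.4 and 49.5 at -log10 q 5 or more and 58.0 and 50.8 among the 100000 strongest summits, where the weaker regions to rank against are gone, and 94.6 and 93.4 when ranked by -log10 p. It was 82.4 in KO with a flank of 0 bp, and without 1 library it ran from 81.7 to 84.2 in control and from 80.7 to 82.2 in KO.

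In the limma fit, 0 histone regions were called under any setting. Over the genome 1 region was called with median centring and 1 with log2 of -log10 p, and 0 under the others but the replicate block. Start-site regions lower in KO numbered 19 to 22 under the settings tried and H4 regions 7 to 9. With median centring, a setting added for this count after seeing the data, 11 start-site regions had both KO libraries below both controls (15.4% of all regions) and 6 had both above (23.5%). The differences at the 8 regions followed across these fits (the 3 largest rises, the 3 largest falls, H3c6 and H4c12) kept their sign in every fit that held them. With the replicate block 54 regions were called (18 higher, 36 lower), none of them histone regions. The deviations of same-numbered libraries had a correlation of 0.00466 over 80271 regions. Nothing in the labels says whether same-numbered libraries share more than a number, and 1 correlation pooled over all regions cannot decide it. The cause of the added calls was not tested. Unknown depth and 2 libraries per genotype limit all comparisons.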

Other observations

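The interval also holds 79 tRNA genes, which are short and transcribed by RNA polymerase III. A peak lay within 1000 bp of 62 of them in all 4 libraries. The 57 regions that lay at a tRNA gene, away from the histone genes, and had a peak in all 4 libraries had median percentiles of 77.6 and 76.1 in control and 76.7 and 78.5 in KO. The strongest lay at n-TSgct5 (chr13:22050502-22051458), with folds of 17.2 and 17.02 in control and 19.6 and 15.0 in KO. By genotype, 33 of the 57 were higher and 24 lower in KO, with a median log2 difference of 0.05, and none passed the limma test.

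The strongest region of the whole interval was at Zfp322a, a zinc finger gene (chr13:23368738-23369620), with folds of 26.8 and 24.9 in control and 26.1 and 25.6 in KO. The butyrophilin gene Btn2a2 (chr13:23488557-23489206), a relative of immune co-signaling molecules, had folds of 21.7 and 19.1 in control and 15.3 and 14.6 in KO. Its log2 difference of -0.40 (SE 0.12, limma adjusted p = 0.506) did not pass the threshold. After normalization 18.6% of all regions had both KO libraries below both controls. Abt1 (chr13:23423416-23424280) had 18.6 and 14.2 in control and 15.0 and 18.3 in KO, so that its genotypes overlapped.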
